A study of Caenorhabditis elegans with 20 samples.

Results

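The transcriptome of *Δdhgd-1* mutants without supplement was compared with that of wild type in 10 of the 20 libraries of the series: 5 from mutants and 5 from wild-type animals. The libraries were taken by their labels (genotype, with the treatment given as control), so no measured value chose them. The mutants carry the *tm6671* allele, a deletion in the 5′ end of *dhgd-1*, in a strain that had been backcrossed to N2, and the wild type was N2. The extent of the deletion is not given in the sources used here. Both strains were kept on 64 nM vitamin B12 for maintenance, and the libraries compared here came from synchronized gravid adults taken from plates of nematode growth medium with *E. coli* OP50 and no added vitamin B12. RNA was extracted from the bodies without the embryos, with many animals pooled per library, and the age in days is not given in the sources used here.

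*dhgd-1* encodes D-2-hydroxyglutarate dehydrogenase, a mitochondrial enzyme that oxidizes D-2-hydroxyglutarate to α-ketoglutarate. In *C. elegans* the metabolite is made when HPHD-1 oxidizes 3-hydroxypropionate in the propionate shunt, the vitamin B12-independent route of propionate breakdown that animals on a diet low in vitamin B12 use in place of the canonical, vitamin B12-dependent route. Propionate itself comes from the breakdown of branched-chain amino acids, methionine, threonine and odd-chain fatty acids, so that the enzyme sits next to amino acid, lipid and ketone body metabolism.

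The libraries were made with Cel-seq2, which samples the 3′ ends of transcripts, so a count depends little on transcript length. Depth was 4353336 to 13870360 counts per library in mutants and 3643918 to 12641097 in wild type. The labels place replicates 1 and 2 of each strain in one series of library names (olga) and replicates 5, 6 and 7 in another (s), and the first principal component of the 10 libraries (44% of the variance of 2000 variable genes) followed these series. The second (21%) separated the strains, with scores of 11.2 to 27.7 in mutants and -36.2 to -6.69 in wild type. Values below are CPM, the counts scaled to a common library total, given in the order of replicates 1, 2, 5, 6 and 7. Of the 8 marker lists for embryos, oocytes, sperm, germ cells, intestine, muscle, neurons and epidermis, each was detected: 0 to 5 members a list had no count in any of the 10 libraries. The summed levels of the strains overlapped for each list, for instance 187 to 465 CPM in mutants and 199.8 to 543 CPM in wild type for 48 embryo markers. In whole animals, a change in the number of cells of a type and a change of RNA per cell cannot be told apart.

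Between *Δdhgd-1* mutants and wild type without supplement, 317 of 11270 genes tested differed (2.81%), with 205 up (1.82%) and 112 down (0.994%) in the mutants. A single mutant strain was compared, so effects of *dhgd-1* and of other differences between the strains cannot be told apart. Calls required a change of more than 1.5-fold and, in edgeR's quasi-likelihood test with the library series as a term, an adjusted p below 0.05. The median log2 fold change was 1.67 among the higher genes and -1.49 among the lower genes, against -0.03 over all genes tested. In 303 of the 317 genes all 5 same-numbered pairs of libraries moved one way, and in 166 the CPM of the strains did not overlap. Over all genes tested the strains did not overlap in 326 (2.89%, with 2.37% with the mutants above and 0.524% with them below). The 317 genes were called from these same libraries, so neither count is separate support for the calls. Most changes were in genes of low to moderate level. Of 2167 genes at 100 CPM or more, 10 were higher and 16 lower, whereas of 3973 genes between 1 and 10 CPM, 94 were higher and 53 lower. With TMM scaling 64.7% of the called genes were higher, but with library totals alone 79.0% were (313 higher, 83 lower), a choice that shifted the median of all genes by 0.13 on the log2 scale. With the replicate number as a block, 448 genes (3.98%) were higher and 179 (1.59%) lower, and these held all 317 genes. Leaving out single libraries gave 136 higher genes without mutant replicate 1 and 128 without mutant replicate 5, and 60 lower genes without wild-type replicate 1, 68 without mutant replicate 5 and 73 without mutant replicate 7.

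**Figure D1:**
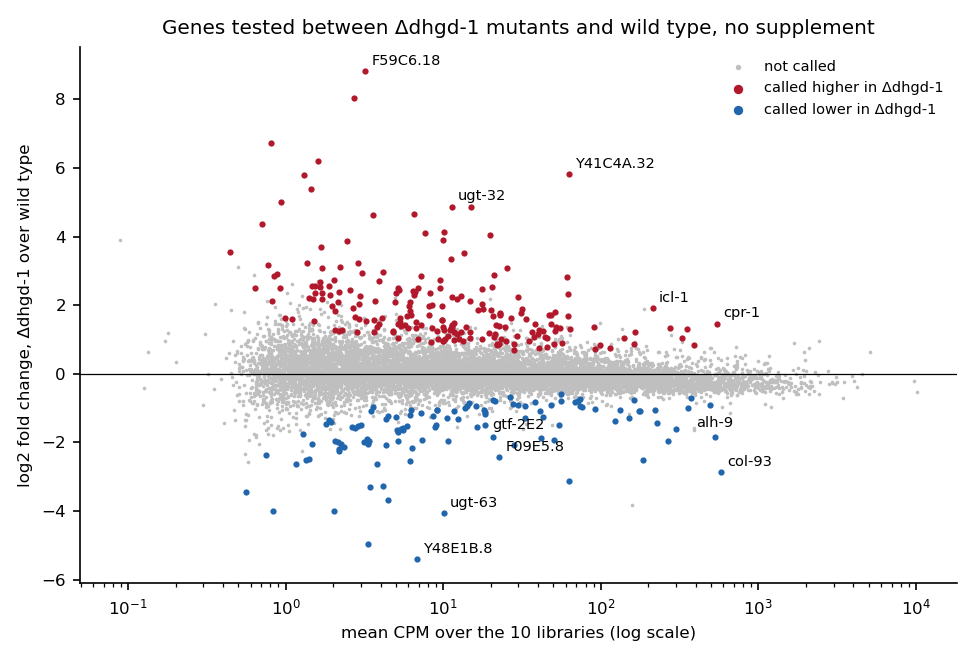
Log2 fold change of each of the 11270 genes tested (*Δdhgd-1* mutants over wild type) against its mean CPM over the 10 libraries, on a log axis. Red points are the 205 genes called higher in mutants, blue points the 112 called lower, and most called genes lie below 100 CPM.

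At the mutated locus, a neighbour of *dhgd-1* fell. *gtf-2E2*, which encodes the β subunit of the general transcription factor TFIIE, lies on chromosome II (11540773 to 11542495 of WBcel235), on the same strand as *dhgd-1*, 142 bases beyond the 5′ end of the shorter annotated *dhgd-1* transcript and inside the span of the longer one (11538895 to 11552081). It had 10.7, 11.5, 13.1, 13.9 and 12.8 CPM in *Δdhgd-1* mutants, against 21.6, 18.9, 22.7, 20.3 and 35.9 CPM in wild type. Every mutant library was below every wild-type library. The log2 fold change was -1.07 ± 0.19 (± is the standard error of the fit throughout; adjusted p = 0.00189), and it was called without any one of the 10 libraries. Between the strains on vitamin B12, where 0.55% of all genes were called, it was -1.004 (adjusted p = 0.00996). Of the 16 tested genes that flank *dhgd-1*, 8 on either side, no other was called, although *F54D5.3* was with the replicate block. The other tested genes within the span of the longer transcript were *F54D5.9* with a log2 fold change of 0.07 (adjusted p = 0.938), *dnj-13*, a DnaJ chaperone gene, with -0.29 (adjusted p = 0.549) and *F54D5.7* with -0.00 (adjusted p = 0.999). *dhgd-1* itself had 51.8, 59.3, 33.1, 18.2 and 25.9 CPM in mutants, against 27.9, 28.8, 21.8, 15.1 and 16.9 CPM in wild type. It was higher in the mutant of all 5 pairs but the strains overlapped, with a log2 fold change of 0.58 ± 0.28 (adjusted p = 0.324). Since reads lie near the 3′ end, these counts do not check the genotype. Whether reads were assigned by strand is not stated, and reads from the overlapping stretch of *dhgd-1* and *gtf-2E2* could be given to either gene. The gene was picked out after its values had been seen.

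**Figure D2:**
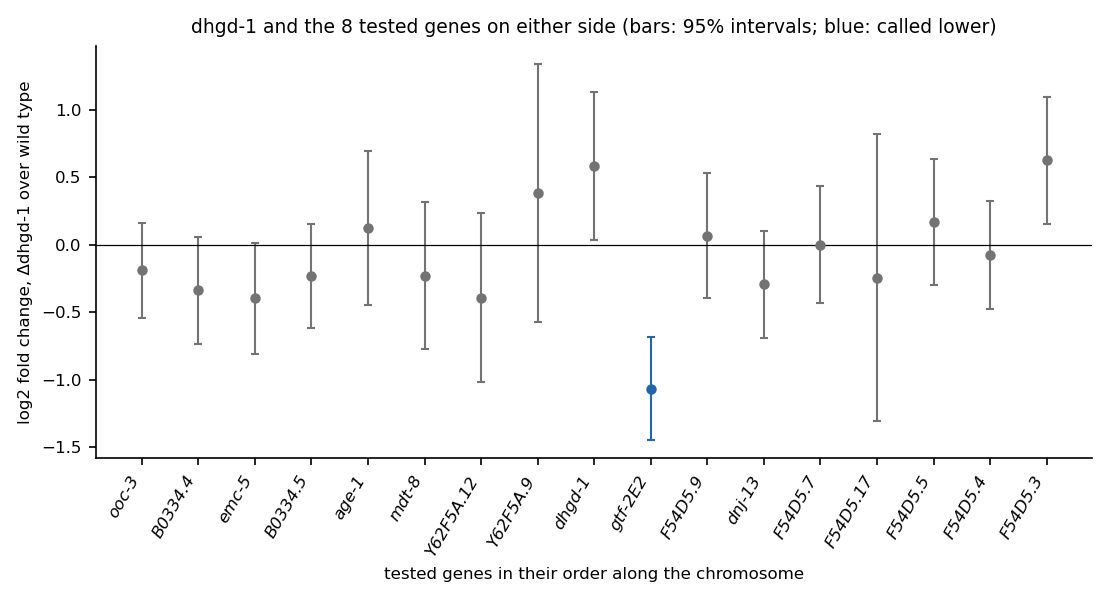
Log2 fold change (*Δdhgd-1* mutants over wild type) of *dhgd-1* and the 8 tested genes on either side, in their order along the chromosome, with bars of 95% intervals. *gtf-2E2* at -1.07 is the called gene (blue), and *dhgd-1* lies at 0.58 (adjusted p = 0.324).

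Among the 12 largest increases, *ugt-32*, a UDP-glucuronosyltransferase gene, had 26.4, 24.1, 14.8, 16.8 and 27.6 CPM in *Δdhgd-1* mutants, against 1.29, 1.37, 0.191, 0 and 0.870 CPM in wild type. *F20G2.1* had 54.8, 59.5, 24.3, 19.2 and 29.8 CPM in mutants, against 5.48, 1.92, 0.764, 0.763 and 1.74 CPM in wild type. The strains did not overlap for either gene, with log2 fold changes of 4.87 ± 0.43 for *ugt-32* (adjusted p = 1.06e-07) and 4.05 ± 0.31 for *F20G2.1* (adjusted p = 1.15e-08). Large increases were also measured for *C04C11.25* (4.65, adjusted p = 5.24e-06), *C06E4.3* (4.64, adjusted p = 3.01e-06), *W02H5.2* (4.14, adjusted p = 0.000111), *Y49G5A.1* (4.09, adjusted p = 2.33e-05), *F33H12.7* (3.52, adjusted p = 0.000178) and the chemoreceptor genes *srr-6* (3.89, adjusted p = 0.00121) and *srx-86* (3.88, adjusted p = 1.18e-05). The rule's other members were *F59C6.18*, *Y41C4A.32* and *warf-1*, an ARF-related gene. *F59C6.18* had 34 to 109 counts in each mutant library and none in wild type, which puts it at least 14.01-fold above the level that 3 counts in each wild-type library would give. *C01G10.4* was likewise without a single count in wild type. In mutants it held 80, 48, 55, 2 and 13 counts, at least 11.9-fold higher on average but uneven between libraries. *C06E4.3* overlaps *glb-2*, *Y41C4A.32* overlaps *Y41C4A.26*, *F20G2.1* overlaps *F20G2.9* and *warf-1* overlaps *nep-16* on the opposite strand, so their reads could not be told apart if strand was not used. *W02H5.2* overlaps *W02H5.17*, *W02H5.18* and *W02H5.19* on the same strand, where strand would not separate the reads.

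Among the 12 largest decreases, *F09E5.8*, which encodes a pyridoxal phosphate-binding protein, was the most even: 6.26, 8.73, 8.81, 8.37 and 6.34 CPM in *Δdhgd-1* mutants, against 37.7, 39.5, 27.2, 42.3 and 40.7 CPM in wild type. Its log2 fold change was -2.43 ± 0.22 (adjusted p = 2.19e-07), and it was -2.46 between the strains on vitamin B12 (adjusted p = 1.97e-07). *K09C6.9* had 1.11, 0.689, 0.650, 0.364 and 0.721 CPM in mutants, against 6.28, 1.92, 6.30, 6.57 and 9.89 CPM in wild type (log2 fold change -3.30, adjusted p = 0.000135). The strains did not overlap for either gene. *F53F1.4* had 17.8, 17.7, 13.9, 7.28 and 14.6 CPM in mutants, against 227, 44.5, 201, 32.4 and 52.6 CPM in wild type, where replicates 1 and 5 stood above the rest (-3.12, adjusted p = 0.000893). *F46F2.3* (-2.52, adjusted p = 0.00079) and *nas-3*, an astacin metalloprotease gene (-3.26, adjusted p = 0.00165), also fell. The remaining members were *Y48E1B.8*, *scl-6*, *ugt-63*, *col-149*, *col-93*, *grd-13* and *grd-14*.

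None of the 5 propionate shunt genes passed the test without supplement. *acdh-1*, the acyl-CoA dehydrogenase at the head of the shunt, had 428, 295, 214, 214 and 247 CPM in *Δdhgd-1* mutants, against 373, 193, 271, 250.0 and 312 CPM in wild type. Its log2 fold change was -0.16, with an 95% interval of -1.01 to 0.69 (normal, from the standard error), and the strains overlapped. The values were -0.29 (-0.66 to 0.08) for the hydratase gene *ech-6*, 0.36 (-0.21 to 0.93) for *hphd-1*, 0.24 (-0.21 to 0.68) for the dehydrogenase gene *alh-8* and 0.64 (0.16 to 1.13, adjusted p = 0.197) for the hydrolase gene *hach-1*. *hach-1* was higher in the mutant of all 5 pairs, with 1204, 942, 425, 369.6 and 458 CPM in mutants, against 392, 594, 268, 282 and 323 CPM in wild type. No member of the 8 genes of the canonical, vitamin B12-dependent pathway was called (median -0.00), and none of the 3 genes of the electron transfer flavoprotein system, which takes electrons from D-2-hydroxyglutarate dehydrogenase, was called (median 0.18).

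Of 7 ketone body genes that the study listed as changed in these libraries, 2 rose and none fell here (median 0.64). *ech-6*, *hphd-1* and *hach-1* are also in the propionate shunt list above, and the median is the value of *hach-1*, which was not called. The category is a prior pathway annotation with further genes, which were not in the list used here. Since the 7 members were listed as changed in these same libraries, neither their median nor their direction is independent evidence. *C05C10.3*, the succinyl-CoA:3-ketoacid CoA transferase gene, had 234, 254, 142, 177 and 173 CPM in *Δdhgd-1* mutants, against 68.5, 101, 86.7, 68.6 and 98.4 CPM in wild type. *ech-7*, an enoyl-CoA hydratase family gene, had 72.1, 81.1, 47.4, 40.9 and 42.03 CPM in mutants, against 28.5, 30.5, 16.1, 15.7 and 24.4 CPM in wild type. The strains did not overlap for either gene, with log2 fold changes of 1.05 ± 0.24 for *C05C10.3* (adjusted p = 0.0137) and 1.15 ± 0.19 for *ech-7* (adjusted p = 0.000577). *kat-1*, a ketoacyl-CoA thiolase gene, was separate too, at 62.7 to 120.0 CPM in mutants and 33.3 to 54.9 CPM in wild type. Its log2 fold change of 0.69 had an adjusted p of 0.0959 and was not called. It was called with the replicate block (adjusted p = 0.0148) and with DESeq2 with a batch term (adjusted p = 0.0453). *sur-5*, the acetoacetyl-CoA synthetase gene, had a log2 fold change of 0.33 (-0.06 to 0.73).

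Genes of lipid and carbon metabolism rose singly. *icl-1* encodes the bifunctional enzyme of the glyoxylate cycle, which makes malate and succinate from acetyl-CoA and isocitrate. It had 353, 209.7, 343, 324 and 489 CPM in *Δdhgd-1* mutants, against 44.3, 68.9, 115, 137 and 48.8 CPM in wild type, with no overlap (1.90 ± 0.34 on the log2 scale, adjusted p = 0.00159). It was the 1 of 5 tested genes of the glyoxylate cycle and gluconeogenesis that was called. *fat-2*, the Δ12 fatty acid desaturase gene, had 1233, 825, 211, 216 and 207 CPM in mutants, against 298, 245, 104.03, 74.7 and 117 CPM in wild type. Its level differed between the library series, and within each series the mutants were higher (1.31 ± 0.23 on the log2 scale, adjusted p = 0.00121). *fat-7*, a Δ9 desaturase gene, was called at 1.30 (adjusted p = 0.0434), but in only 2 of the 10 fits that left out a library. *fat-2* and *fat-7* were the called members among 14 genes of fatty acid synthesis and desaturation (median 0.12). *lbp-7*, a fatty acid binding protein gene, had 10.19 to 27.7 CPM in mutants and 2.90 to 8.40 CPM in wild type (1.49, adjusted p = 0.0146). Outside the lists, and named after their values were seen, the lipase coactivator homologues *abhd-5.1* (1.45, adjusted p = 0.0183) and *abhd-5.2* (1.38, adjusted p = 0.00728) and the fatty acid amide hydrolase gene *faah-2* (1.78, adjusted p = 0.00467) rose. No gene was called among 24 genes around 2-oxoglutarate and the TCA cycle, 18 of glycolysis, 10 of peroxisomal oxidation, 6 lipases and 6 vitellogenins (medians 0.08, 0.04, 0.21, 0.36 and 0.09).

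Single genes of amino acid breakdown fell or rose. *alh-9*, the aldehyde dehydrogenase gene of lysine breakdown, had 253, 317, 182, 251.5 and 245 CPM in *Δdhgd-1* mutants, against 610.1, 601, 409, 313 and 407 CPM in wild type. The strains touched in a single library each, and the log2 fold change was -1.0002 ± 0.17 (adjusted p = 0.000961). The other 3 lysine genes were not called. *cth-2*, a cystathionine γ-lyase gene, had 197, 165, 127, 155 and 122 CPM in mutants, against 507, 234.6, 203, 247 and 257 CPM in wild type, without overlap (-1.05 ± 0.21, adjusted p = 0.00467), the 1 called gene among 14 of the methionine and S-adenosylmethionine cycle (median -0.28). Of 7 tryptophan breakdown genes (median -0.49) 28.6% were called, against 2.81% over all genes. *kmo-1*, the kynurenine 3-monooxygenase gene (-1.05, adjusted p = 0.0167), and *kynu-1*, the kynureninase gene (-0.94, adjusted p = 0.0357), fell. Neither was called with library totals alone, nor without mutant replicate 5, mutant replicate 7, wild-type replicate 1 or wild-type replicate 5. In wild-type replicate 1 *kynu-1* was at 73.3 CPM, and at 26.9 to 40.7 CPM in the other wild-type libraries. Among 14 genes of branched-chain amino acid breakdown *acdh-9*, an acyl-CoA dehydrogenase gene, rose (0.95, adjusted p = 0.0265, called in 5 of the 10 fits that left out a library), at 21.9 to 44.1 CPM in mutants and 11.8 to 19.1 CPM in wild type. No gene of tyrosine breakdown was called among 6. Named after their values were seen, *got-1.2*, an aspartate aminotransferase gene (0.87, adjusted p = 0.0269), and, outside amino acid breakdown, *bca-1*, a β-carbonic anhydrase gene (0.76, adjusted p = 0.0167), rose.

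**Figure D3:**
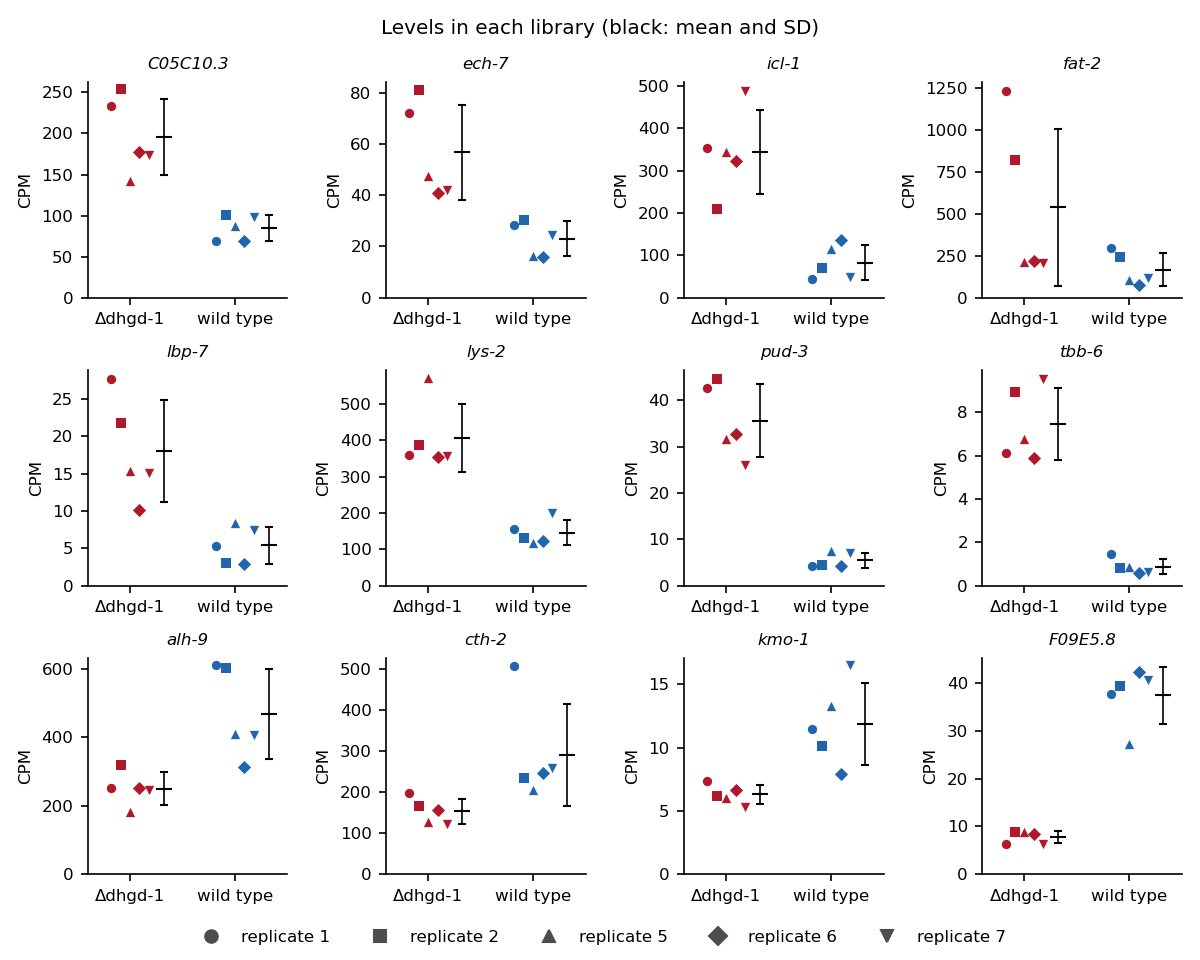
CPM of 12 called genes in each library of *Δdhgd-1* mutants (red) and wild type (blue), with the mean and SD in black (n = 5 each) and 1 marker shape per replicate number. The upper 8 genes rose and the lower 4 fell in mutants, and the strains overlap only for *fat-2* and *alh-9*.

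Single genes of defence and of the lysosome rose. *lys-2*, a lysozyme gene, had 360.4, 387, 571, 354 and 357 CPM in *Δdhgd-1* mutants, against 157, 131, 117, 123 and 201 CPM in wild type, with no overlap (1.34 ± 0.19 on the log2 scale, adjusted p = 9.41e-05). It was the 1 called gene among 9 lysozymes (median 0.81), of which 4 were called with the replicate block. Of 19 lysosomal proteases 3 rose and none fell (median 0.44), and 7 rose with the replicate block: *asp-8*, an aspartic protease gene, was at 47.1 to 61.6 CPM in mutants and 8.86 to 21.1 CPM in wild type (1.59, adjusted p = 0.0231), *asp-12* rose by 2.85 (adjusted p = 0.000148) and *cpr-1*, a cathepsin B gene, by 1.46 (adjusted p = 0.0149). *cpr-1*, also in the intestine marker list, had 2209 CPM in mutant replicate 1 and 329 to 858 CPM in the other mutants, against 132 to 386 CPM in wild type. The other 10 intestine markers were not called. Of 47 antimicrobial effectors 6 rose and 2 fell (median 0.11, with 0.69 in the olga series alone and -0.08 in the s series alone), led by *irg-2*, an infection response gene (2.44, adjusted p = 0.015), and *cnc-4*, a caenacin gene (1.46, adjusted p = 0.00466), while *spp-4*, a saposin-like gene, fell (-0.79, adjusted p = 0.0363). Of 65 C-type lectins 5 rose and 2 fell (median 0.27), for example *clec-190* (1.36, adjusted p = 0.0172) and *clec-97* (-0.81, adjusted p = 0.0263). The called shares were 15.8% of the lysosomal proteases, 17.0% of the antimicrobial effectors and 10.8% of the C-type lectins, against 2.81% over all genes. *spp-4* was called in 2 and *clec-97* in 3 of the 10 fits that left out a library, and neither was called with library totals. These counts moved with single libraries: 1 to 3 antimicrobial effectors were called higher without any one library other than wild-type replicates 1 and 7 (1 without mutant replicate 5), and 1 to 3 C-type lectins without any one library other than mutant replicates 2 and 6 (1 without wild-type replicate 1). *tir-1*, the TIR-domain adaptor gene of innate immunity, and *sqst-1*, an autophagy receptor gene, were named after their values were seen and rose by 1.16 (adjusted p = 0.0146) and 1.23 (adjusted p = 0.0209).

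*pud-3* and *pud-4*, of a small family first described as up-regulated in *daf-2* mutants, rose together. *pud-3* had 42.7, 44.6, 31.7, 32.8 and 25.95 CPM in *Δdhgd-1* mutants, against 4.19, 4.39, 7.54, 4.28 and 7.04 CPM in wild type (2.54 ± 0.29 on the log2 scale, adjusted p = 5.77e-06). *pud-4* had 6.20 to 12.2 CPM in mutants and 0.305 to 3.34 CPM in wild type (2.35, adjusted p = 0.00209). Neither gene overlapped between the strains, and the other 2 tested members were not called. *pqm-1*, a zinc finger transcription factor gene of the insulin pathway, had 22.3, 13.6, 50.5, 17.6 and 28.4 CPM in mutants, against 4.67, 5.21, 8.40, 7.18 and 7.20 CPM in wild type (1.86 ± 0.33, adjusted p = 0.00174). It was the 1 called gene among 13 regulators of the shunt and of lipid metabolism. Named after their values were seen, *tbb-6*, a β-tubulin gene, had 6.12, 8.96, 6.79, 5.91 and 9.52 CPM in mutants, against 1.45, 0.823, 0.859, 0.611 and 0.633 CPM in wild type (2.97 ± 0.30, adjusted p = 1.46e-06), and *dod-3*, a gene downstream of *daf-16*, rose by 1.71 (adjusted p = 0.00349). The mitochondrial stress response (12 genes), heat shock proteins and chaperones (47) and oxidative phosphorylation (54) had no called gene (medians 0.10, -0.09 and -0.00), and among 18 oxidative stress enzymes the thioredoxin gene *trx-3* rose (2.39, adjusted p = 0.0393), but in only 3 of the 10 fits that left out a library, at 1.71 to 2.92 over them.

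Detoxification genes moved in both directions. Of 49 UDP-glucuronosyltransferases, which conjugate small molecules with a sugar, 5 rose and 7 fell (median -0.04), while with library totals 6 rose and 5 fell. The 5 and 7 calls are 24.5% of the list, against 2.81% over all genes. Besides *ugt-32*, *ugt-19* (1.98, adjusted p = 0.0136), *ugt-4* (1.83, adjusted p = 0.00584) and *ugt-29* (1.21, adjusted p = 0.0163) rose. *ugt-63* had 2.23, 1.61, 0.505, 1.27 and 0.937 CPM in *Δdhgd-1* mutants, against 36.2, 6.59, 28.7, 8.25 and 14.3 CPM in wild type. The strains did not overlap (-4.07 ± 0.52 on the log2 scale, adjusted p = 2.84e-05). *ugt-30* (-2.25, adjusted p = 0.0106), *ugt-41* (-1.57, adjusted p = 0.00467) and *ugt-60* (-1.50, adjusted p = 0.00282) also fell. The 7 lower calls became 3 without mutant replicate 5 and 4 without mutant replicate 6, mutant replicate 7 or wild-type replicate 1. Of 34 cytochrome P450 genes *cyp-33C8* rose (1.71, adjusted p = 0.00467) and *cyp-35D1* (-2.37, adjusted p = 0.000893) and *cyp-34A8* (-1.22, adjusted p = 0.011) fell. None of 29 glutathione S-transferases was called. Of 38 short-chain and aldehyde dehydrogenases *dhs-5* rose (1.15, adjusted p = 0.0269) and *alh-9* and *alh-10* (-1.08, adjusted p = 0.0395) fell. The called shares were 8.82% of the cytochrome P450 genes and 7.89% of these dehydrogenases. *dhs-5* was called in 2 and *alh-10* in 3 of the 10 fits that left out a library, and *alh-10* was not called with library totals. The cadmium-responsive genes *cdr-4* (1.44, adjusted p = 0.000601) and *cdr-2* (1.01, adjusted p = 0.0146) rose among 38 genes of metal and haem handling, and *cdr-4* had 47.0 to 70.7 CPM in mutants and 9.61 to 25.8 CPM in wild type.

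Several hedgehog-related and cuticle collagen genes fell. *C. elegans* makes many secreted proteins related to Hedgehog (the grd, grl, wrt families), largely in epidermal cells, and transcripts of many of them and of cuticle collagens come in pulses with each larval moult. Of 13 tested hedgehog-related genes 7 fell (53.8%, where 0.994% of all genes were lower) and none rose (median -1.25, against -0.03 for all genes). The 7 were *grd-13*, *grd-14*, *grd-4*, *grd-10*, *grd-5*, *grd-3* and *grl-4*. The same count was obtained with library totals, RLE size factors and the replicate block, while 5 were lower without the batch term, 4 in the s series alone and 0 in the olga series alone (medians -1.22 and -1.29 in these series). *grd-14* had 1.11, 2.07, 2.89, 1.55 and 2.45 CPM in *Δdhgd-1* mutants, against 11.1, 6.31, 13.6, 9.62 and 10.8 CPM in wild type (-2.54 ± 0.36 on the log2 scale, adjusted p = 0.000135). *grd-4* had 2.23, 2.99, 2.31, 1.64 and 2.31 CPM in mutants, against 9.50, 5.76, 8.21, 5.34 and 11.2 CPM in wild type (-1.97 ± 0.32, adjusted p = 0.000601). The strains were separate for both, as for *grd-13* (0.689 to 1.44 CPM in mutants, 3.57 to 13.05 CPM in wild type, -2.62, adjusted p = 0.00174). *grd-13*, *grd-14* and *grd-4* are low in these adults, at most 13.6 CPM in any library. The 3 wrt genes tested (*wrt-3*, *wrt-5*, *wrt-9*) were not called.

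Of 54 tested cuticle collagens 8 fell (14.8%, where 0.994% of all genes were lower) and none rose (median -0.51), and 14 estimates were above 0. *col-93* had 77.8, 208, 163, 124 and 152 CPM in *Δdhgd-1* mutants, against 2301, 766, 876, 682 and 446 CPM in wild type. The strains did not overlap (-2.88 ± 0.46 on the log2 scale, adjusted p = 0.000506), and *col-93* overlaps *dhc-4*, which was called higher, on the opposite strand. *col-149* (-3.69, adjusted p = 0.0136), *col-150* (-3.44, adjusted p = 0.00467) and *col-43* (-2.53, adjusted p = 0.0142) had large changes at low levels, at most 23.4 CPM in any library (*col-149* in wild-type replicate 1). Wild-type replicate 1 stood apart in both families. The summed level of the 161 collagens in the table was 23627, 22972, 14643.5, 12849.7 and 11658 CPM in mutants, against 55682.5, 20848, 21391.5, 18406 and 14234 CPM in wild type, so that the strains overlapped in the sum. The summed level of the 56 hedgehog-related genes was 426, 439, 280.3, 234.99 and 236 CPM in mutants, against 1634, 709.95, 589.7, 491 and 523 CPM in wild type, without overlap. Little of this sum came from *grd-13*, *grd-14* and *grd-4*, and which members carried its difference between the strains was not tested. Without wild-type replicate 1, 5 collagens were lower and 1 was higher (median -0.26) and 6 hedgehog-related genes were lower (median -1.08). With library totals 8 collagens were lower and 2 higher. The 10 epidermis markers had no called gene among the 7 tested, at 491 to 544 CPM in mutants and 465 to 835 CPM in wild type as a sum. Their part in the lower collagen and hedgehog-related levels was not tested.

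**Figure D4:**
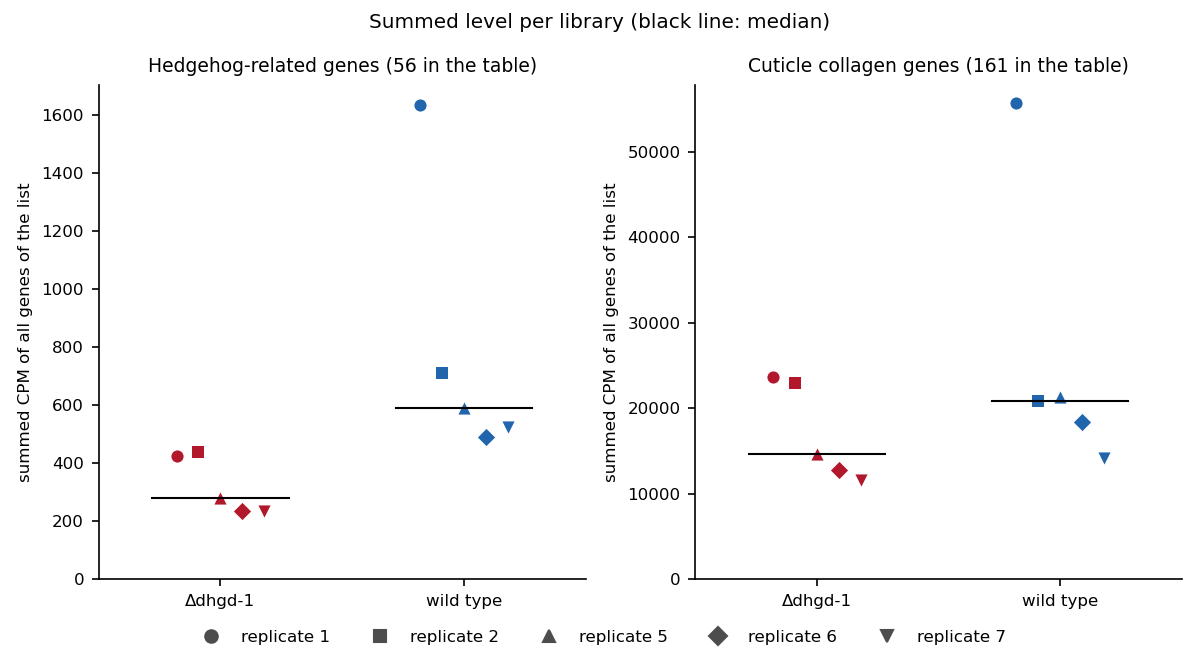
Summed CPM of the 56 hedgehog-related genes and of the 161 cuticle collagens in each library of *Δdhgd-1* mutants (red) and wild type (blue), with 1 marker shape per replicate number and the median as a black line. The hedgehog-related sums do not overlap (mutants at most 439 CPM), the collagen sums do, and wild-type replicate 1 is the highest library in both panels.

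Some genes of signalling passed the test. Among the tested members of 141 neuropeptide and insulin genes 6 rose and 1 fell (median 0.37), with 97 estimates above 0 and 22 below; the median was 0.91 in the olga series alone and 0.12 in the s series alone. *nlp-31*, an antimicrobial-like neuropeptide gene of the epidermis, had 36.7 to 75.1 CPM in *Δdhgd-1* mutants and 14.3 to 35.1 CPM in wild type (1.07, adjusted p = 0.0217), *nlp-66* rose by 3.68 (adjusted p = 0.0124), *nlp-25* by 1.39 (adjusted p = 0.0404, called in 4 of the 10 fits that left out a library) and the FMRFamide-like gene *flp-3* by 1.29 (adjusted p = 0.0193). *ins-5*, an insulin-like gene, was called lower (-1.08, adjusted p = 0.0461) but in none of the 10 fits that left out a library. With the replicate block 17 rose and 2 fell. Without mutant replicate 5, wild-type replicate 1 or wild-type replicate 6, 3 rose, and without wild-type replicate 7, 11 rose. Of 132 nuclear hormone receptors *nhr-45* (1.02, adjusted p = 0.0139) and *nhr-103* (1.27, adjusted p = 0.0439) rose, which is 1.52% of the list where 1.82% of all genes were higher; *nhr-103* was called in none of the 10 fits that left out a library. The median of the receptors was 0.36 (0.65 in the olga series alone, 0.20 in the s series alone), with 7 higher and 1 lower in the replicate block. Estimates also leaned with level across all genes: the median was 0.12 for genes between 1 and 10 CPM and -0.18 for those at 100 CPM or more. The 78 cytosolic ribosomal protein genes, which are abundant, had no called gene and a median of -0.38, with 77 estimates below 0. That median was -0.24 with library totals, -0.01 in the olga series alone and -0.55 in the s series alone. The part of level in these medians was not tested.

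Of 54 tested genes of the chemoreceptor list, out of 938 in the table, 8 rose and 1 fell (median 0.16). Without mutant replicate 5 or without wild-type replicate 1, 5 rose. The list was drawn up by gene name. These calls are 16.7% of the genes tested, against 2.81% over all genes. The low-count filter kept genes that reached a minimum in as many libraries as a group holds. Genes near 0 in wild type, such as *srd-54*, could thus enter through the mutants alone, so this share does not measure a change of the family. *srd-54* had 2.78, 2.99, 2.24, 3.64 and 2.60 CPM in *Δdhgd-1* mutants, against 0.161, 0, 0, 0 and 0.0791 CPM in wild type (log2 fold change 5.39, adjusted p = 2.55e-06), and it overlaps *kcc-3* on the opposite strand. *srr-6* had 35.8, 14.01, 31.1, 5.91 and 7.43 CPM in mutants and 0.763 to 1.37 CPM in wild type, with no overlap but a wide spread in mutants. *srdh-1* fell, at 5.49 to 9.05 CPM in mutants and 11.4 to 19.01 CPM in wild type (-1.28, adjusted p = 0.000601). It is in the list by its name, and whether it encodes a chemoreceptor was not checked. Of 112 F-box and BATH-MATH genes *fbxc-58* (2.42, adjusted p = 0.00236), *fbxa-74* (2.26, adjusted p = 0.00531) and *fbxa-14* (1.53, adjusted p = 0.0292) rose. That is 2.68% of the list, close to the 2.81% called over all genes. Among the other families, 1 of 45 transthyretin-like genes rose (*ttr-23*, 2.35, adjusted p = 0.011) and 1 fell (*ttr-25*, -1.26, adjusted p = 0.00757), 1 of 6 SCP/TAPS genes rose (*scl-2*, 1.58, adjusted p = 0.0483) and 1 fell (*scl-6*, -4.97, adjusted p = 3.09e-05), 1 of 33 proteasome genes fell (*pas-7*, -0.70, adjusted p = 0.0269), and none of 69 mitochondrial ribosomal protein genes and 6 pals genes was called. The called shares were 4.44% of the transthyretin-like, 33.3% of the SCP/TAPS and 3.03% of the proteasome genes, against 2.81% over all genes. *scl-2* was called in 2 and *pas-7* in 4 of the 10 fits that left out a library, and *pas-7* was not called with library totals. One embryo marker of 12 tested, *sdz-8*, rose (2.04, adjusted p = 0.000226), at 3.11 to 5.98 CPM in mutants and 0.573 to 1.37 CPM in wild type. No oocyte, sperm, germ cell, muscle or neuron marker was called.

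**Figure D5:**
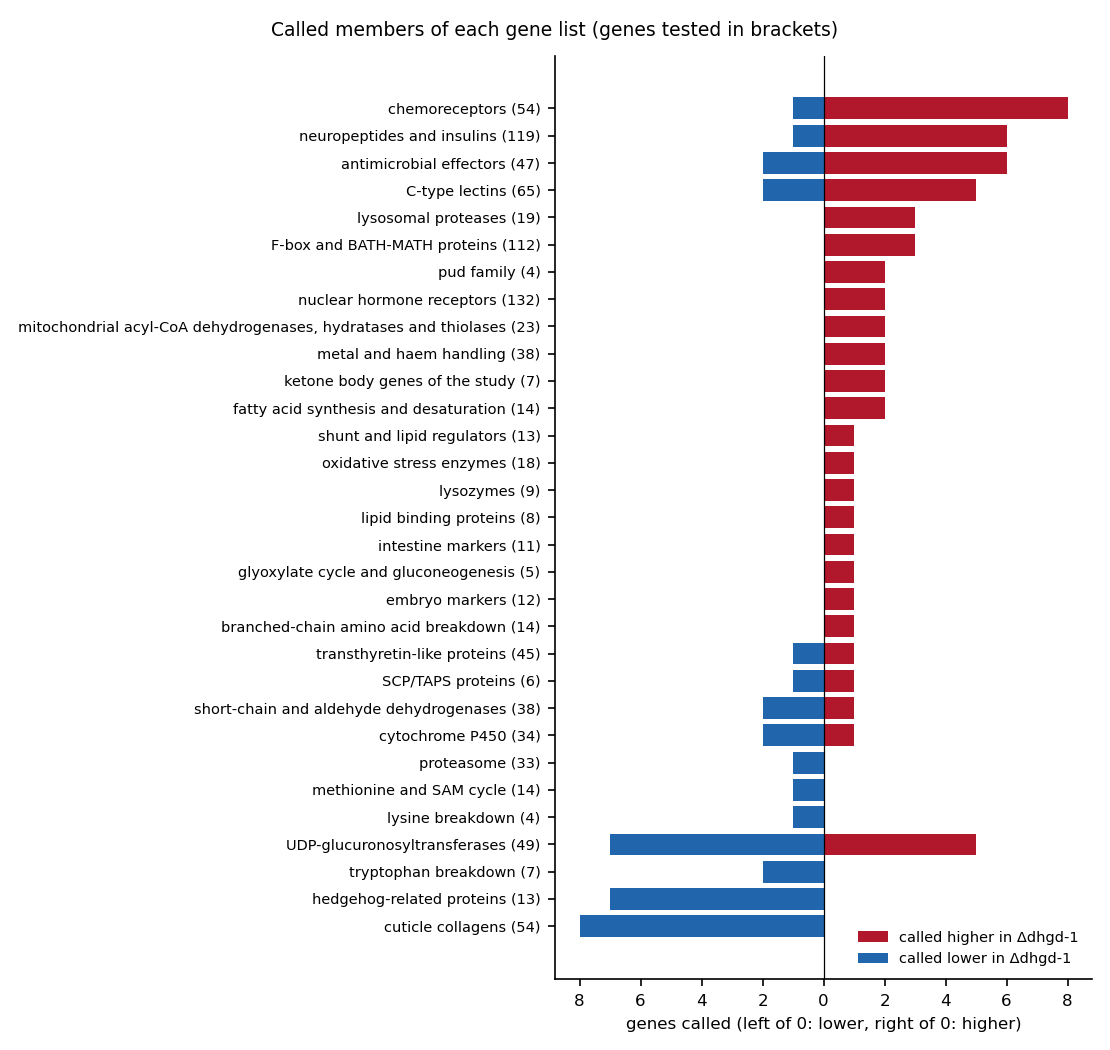
Number of called genes in each of the 31 lists that had any, with the genes tested per list in brackets. Over all 11270 genes tested, 2.81% were called. Bars to the right (red) count genes higher in *Δdhgd-1* mutants and bars to the left (blue) those lower, and the longest bars to the left are the cuticle collagens (8) and the hedgehog-related and UDP-glucuronosyltransferase genes (7 each).

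The called genes were unevenly placed along the genome. Chromosome V held 86 higher and 30 lower genes of 2092 tested (5.54%), and chromosome I held 13 and 7 of 1869 (1.07%), with the other nuclear chromosomes between 1.65% (III) and 3.06% (IV). None of 14 tested mitochondrial genes was called. Next to each other along a chromosome, 51 of the called genes formed 21 runs of tested neighbours that moved one way, 13 higher and 8 lower. The longest held *K09D9.1*, *C49G7.12*, *C49G7.10*, *irg-2* and *phat-3* on chromosome V, all higher by 2.23 to 2.44. *C49G7.10* had 116, 134, 146, 38.5 and 88.9 CPM in *Δdhgd-1* mutants, against 19.3, 15.4, 18.1, 14.5 and 27.4 CPM in wild type, without overlap (2.33 ± 0.30, adjusted p = 3.62e-05). On chromosome IV, *fbxc-58*, *C10C5.3*, *C10C5.4* and *C10C5.5* were higher by 1.87 to 2.42, and *grd-13*, *grd-3* and *grd-10* were lower. *ugt-29* and *icl-1* lie in one run with *srh-2*, and *pud-3* with *pud-4*, *abhd-5.2* with *abhd-5.1* and *col-149* with *col-150* were runs of neighbouring relatives, for which reads of near-identical stretches could be shared between copies.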

How the data were processed

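Cel-seq2 libraries of *Δdhgd-1* mutants and wild type were compared from the table of read counts per gene that the authors deposited. Per the methods of the study, adapters were trimmed with Trimmomatic 0.32, reads were aligned with STAR, and features were counted with ESAT with pseudogenes discarded. The genome build, the version of STAR and ESAT, the use of strand and the treatment of molecular identifiers are not given in the sources used here. The study's own model was DESeq2 with a batch term.

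Here, edgeR 4.0.16 (limma 3.58.1, R 4.3.3) was used on the counts as deposited: filterByExpr, TMM factors, 1 quasi-likelihood fit over all 20 libraries with the library series as batch, and Benjamini-Hochberg adjustment over 11270 genes. The methods name a sequencer for 2 and another for 3 replicates, and the labels name none, so the library series was taken as the batch. DESeq2 1.42.0, RLE factors, library totals, other filters and folds, each series alone, the 10 libraries alone, a replicate block and the omission of each library were alternatives. The labels call the libraries biological replicates. After removal of the series, the deviations of same-numbered libraries in the 2 strains correlated at 0.20, 0.20, 0.22, 0.26 and 0.10 for replicates 1, 2, 5, 6 and 7, all over 0.1. Replicates 1 and 2 are the only 2 libraries per strain in their series, so their values are equal by construction and count once. The numbers were taken as pairs in the block. With the series left in, the best match of mutant replicates 2 and 7 was a wild-type library of another number. Symbols, positions and overlaps were taken by gene identifier from the WBcel235 annotation. Not every overlap is given above. Opposite-strand overlaps also include *C05C10.3* with *pho-11*, *Y48E1B.8* with *clec-145*, *col-149* with *B0024.15*, *cth-2* with *ZK1127.3* and *trx-3* with *gbb-2*. Levels are CPM of library totals. The total count per library sets the precision, and intervals and floors cover the stated error only. Figures were drawn with matplotlib 3.10.9 (Python 3.11.15).

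Named genes were the 12 largest changes in each direction with a mean count of at least 20 and 5 of 5 pairs in one direction, all members of the propionate, ketone body and electron transfer flavoprotein lists with *dhgd-1*, and up to 4 called members of each other list and direction, with further genes said to be named after their values were seen; the genes of the chromosomal runs, *C01G10.4*, *F54D5.9*, *dnj-13* and *F54D5.7* belong to these. The comparison, the members and the lists were chosen with earlier results of these data known.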

Additional observations from a re-analysis of the deposited data

Results flagged for a closer look

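Among 58 groups of 5 libraries (29 genes in both strains), 5 held a library whose gap to its nearest neighbour exceeded Dixon's 95% critical value, which chance passes in about 1 in 20 groups. Mutant replicate 5 was at 571 CPM for *lys-2* (gap 0.845 of the range), against 354 to 387 CPM in the other mutants. Wild-type replicate 1 was at 5.48 CPM for *F20G2.1* (0.754), at 2301 CPM for *col-93* (0.768) and at 507 CPM for *cth-2* (0.823), and wild-type replicate 7 was at 35.9 CPM for *gtf-2E2* (0.777). All 5 genes were also called without each of the 10 libraries.

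The genotype difference depended on supplement in 5 of the genes tested: *Y41C4A.32*, *warf-1*, *pud-3*, *lys-2* and *suro-1*. The interaction is the log2 fold change of mutants over wild type without vitamin B12 minus that with it. It was 5.76 for *Y41C4A.32* (edgeR adjusted p = 3.96e-05), at 5.82 without and 0.06 with vitamin B12, and 4.41 for *warf-1* (adjusted p = 0.0228), at 4.87 without and 0.47 with it. It was 3.27 for *pud-3* (adjusted p = 7.55e-05), at 2.54 without and -0.73 with vitamin B12, and 1.38 for *lys-2* (adjusted p = 0.0426), at 1.34 without and -0.03 with it.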

How the results depend on the processing

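Against 205 higher and 112 lower genes, 313 genes were higher with library totals, 445 higher and 178 lower without a filter on low counts, 71 lower with the stricter filter, 80 higher and 57 lower without the batch term, 20 higher and 2 lower in the olga series alone, 57 higher and 47 lower in the s series alone, and 317 higher and 185 lower with DESeq2. With the replicate block 448 were higher and 179 lower. Leaving out 1 library at a time gave 128 to 216 higher and 60 to 125 lower genes. No called named gene changed direction under any of these alternatives that gave it a value. Of 149 named genes, 71 were called in all 10 fits that left out a library. Without the batch term 49 fell short of the threshold, as did 100 in the olga series and 74 in the s series. With the replicate block 2 (*kat-1* and *F54D5.3*) passed it, and *kat-1* also passed it with DESeq2. The block ended no call. The series taken alone have 2 and 3 libraries per strain, and the cause of their lower counts was not tested. Depth limits genes of a few counts per library, such as *col-150* and *srd-54*, whose fold changes depend on the prior count.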
